A study of Equus caballus with 28 samples.

Results

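The miR-17, miR-18 and miR-19 families were followed through 28 small RNA libraries of the horse embryo–maternal interface 13 days after ovulation. All entries of the known miRNA table named eca-miR-17, eca-miR-18a, eca-miR-18b, eca-miR-19a, eca-miR-19b, eca-miR-20a, eca-miR-20b, eca-miR-93, eca-miR-106a or eca-miR-106b were taken (eca, the horse, is left out of the names from here on), which gave 10 of the 690 known miRNAs, or 10 of 844 entries with the 154 predicted ones. Of these, 6 belong to the miR-17 seed family (miR-17, miR-20a, miR-20b, miR-93, miR-106a and miR-106b), 2 to the miR-18 family and 2 to the miR-19 family. The samples were endometrial biopsies of pregnant (n = 5) and cyclic (n = 4) mares, uterine fluid (UF) of pregnant (n = 5) and cyclic (n = 4) mares, embryonic tissue (n = 5) and the yolk sac (YS) fluid of the embryos (n = 5). Per the study's methods, Warmblood mares served as their own controls, all received hCG to induce ovulation, and the pregnant cycles followed insemination while the cyclic ones received none. UF was taken up by a tampon, YS fluid was aspirated by needle, and the capsule was removed from the embryo, which carries all its cell types into 1 bulk sample. Sample numbers were read as mare numbers, and mare 5 has no cyclic library here. Tissues and fluids were extracted with different kits, so kit and sample kind cannot be told apart between a tissue and a fluid, whereas embryo and endometrium shared a kit, as did YS fluid and UF.

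A miRNA guides silencing of mRNAs through its seed, a short stretch near its 5′ end, and miRNAs with the same seed can bind the same sites. The miR-17 family is known to repress inhibitors of the cell cycle such as CDKN1A as well as E2F factors. These miRNAs are abundant in dividing and embryonic cells. In the RefSeq horse annotation (assembly TB-T2T, used here for neighbourhood only) their genes lay in 3 clusters, each known in mammals as a polycistron, a primary transcript from which several miRNAs are cut. The miR-17 cluster holds 6 genes in the order MIR17, MIR18A, MIR19A, MIR20A, MIR19B and MIR92A. The miR-106a cluster holds 6 related genes, MIR363, MIR92A-2, MIR19B-2, MIR20B, MIR18B and MIR106A. The miR-25 cluster holds 3, MIR25, MIR93 and MIR106B. A mature miR-19b can therefore come from either of the first clusters, whereas miR-20b and miR-18b are read from the miR-106a cluster and miR-20a and miR-18a from the miR-17 cluster.

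The libraries differed in depth, with 4352 to 14531 reads on miRNAs in YS fluid, 28204 to 44768 in embryo and 61836 to 590593 in the other groups. Levels are given as TMM-normalized CPM, the reads of a miRNA scaled to a common library size, with TMM factors, which correct for the make-up of a library, set over all 28 libraries. A floor of 3 reads, which allows for counting error alone, stood at 9.95 to 16.98 CPM in pregnant endometrium, 28.6 to 62.5 in pregnant UF, 33.6 to 81.2 in embryo and 53.5 to 416 in YS fluid. The labels were checked against marker miRNAs. The summed level of 8 embryonic miRNAs (miR-302a, miR-302b, miR-302c, miR-302d, miR-367, miR-371-3p, miR-371-5p and miR-372) was 9175 to 40284 CPM in embryo and 13935 to 94055 in YS fluid, against 0 to 9.84 in pregnant endometrium, 0 to 41.7 in pregnant UF and 0 to 55.0 in cyclic UF. All 4 leukocyte markers were at 0 in YS fluid, with a summed level of 0 to 34.5 CPM in embryo and 554 to 1608 in pregnant endometrium, and 4 red blood cell markers summed to 59.5 to 150 CPM in embryo and 4314 to 18771 in pregnant endometrium. The embryonic markers thus differed in every contrast between conceptus and uterus below. Leukocyte, red blood cell, stromal and endothelial markers differed between embryo and pregnant endometrium. The 5 stromal markers summed to 83.3 to 379.6 CPM in embryo and 20144 to 73529 in pregnant endometrium. The 2 endothelial markers summed to 71.4 to 213.71 CPM in embryo and 3130 to 7771 in pregnant endometrium. The 6 epithelial markers differed less there, at a summed 59623 to 82338 CPM in embryo and 90969 to 116340 in pregnant endometrium. Stromal and endothelial markers also differed between UF and endometrium, while the ranges of the epithelial ones overlapped. In pregnant UF they summed to 361 to 7390 CPM (stromal) and 9.76 to 421.8 (endothelial). Cyclic UF had 1044 to 3897 and 26.8 to 189 CPM, against 24936 to 42912 and 3941 to 6440 in cyclic endometrium. The part of cell makeup in the contrasts was not tested. In such bulk samples fewer cells of a type and less RNA per cell cannot be told apart.

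The counts of miR-17 and miR-106a ran almost in parallel. Over all libraries miR-17 had 2020 reads and miR-106a 1901, miR-17 was at or above miR-106a in 27 of 28 libraries, and the largest gap in any library was 15 reads. Their Bray-Curtis dissimilarity (0 for identical counts, 1 for none shared) was 0.0309, against 0.215 for the next closest pair, miR-20a and miR-19b. The handling of reads that fit more than 1 miRNA is not given in the sources used here, so their 2 genes, although in different clusters, cannot be separated by these counts. Sums and shares of the families leave miR-106a out, whereas the counts of members called include both and hold 1 measurement more than once where both are called.

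The families took a far larger part of the conceptus libraries than of the uterine ones. With miR-106a left out, the other 9 miRNAs made up 3.03% ± 0.535 (SD, n = 5) of all reads in embryo and 5.55% ± 1.93 (n = 5) in YS fluid. The same sum was 0.318% ± 0.0859 (n = 5) in pregnant endometrium, 0.316% ± 0.0618 (n = 4) in cyclic endometrium, 0.510% ± 0.127 (n = 5) in pregnant UF and 0.457% ± 0.192 (n = 4) in cyclic UF. The lowest embryo library (2.37%) lay above the highest of all uterine libraries (0.702%, a cyclic UF). Each of the 10 miRNAs had its highest group mean in embryo or YS fluid, on the TMM scale, as plain CPM and with RLE size factors alike. This includes both miR-17 and miR-106a, and the share of all miRNAs with such an order was not counted. On the TMM scale the highest group overlapped with uterine libraries for miR-93, miR-106b, miR-18b and miR-19b.

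**Figure D1:**
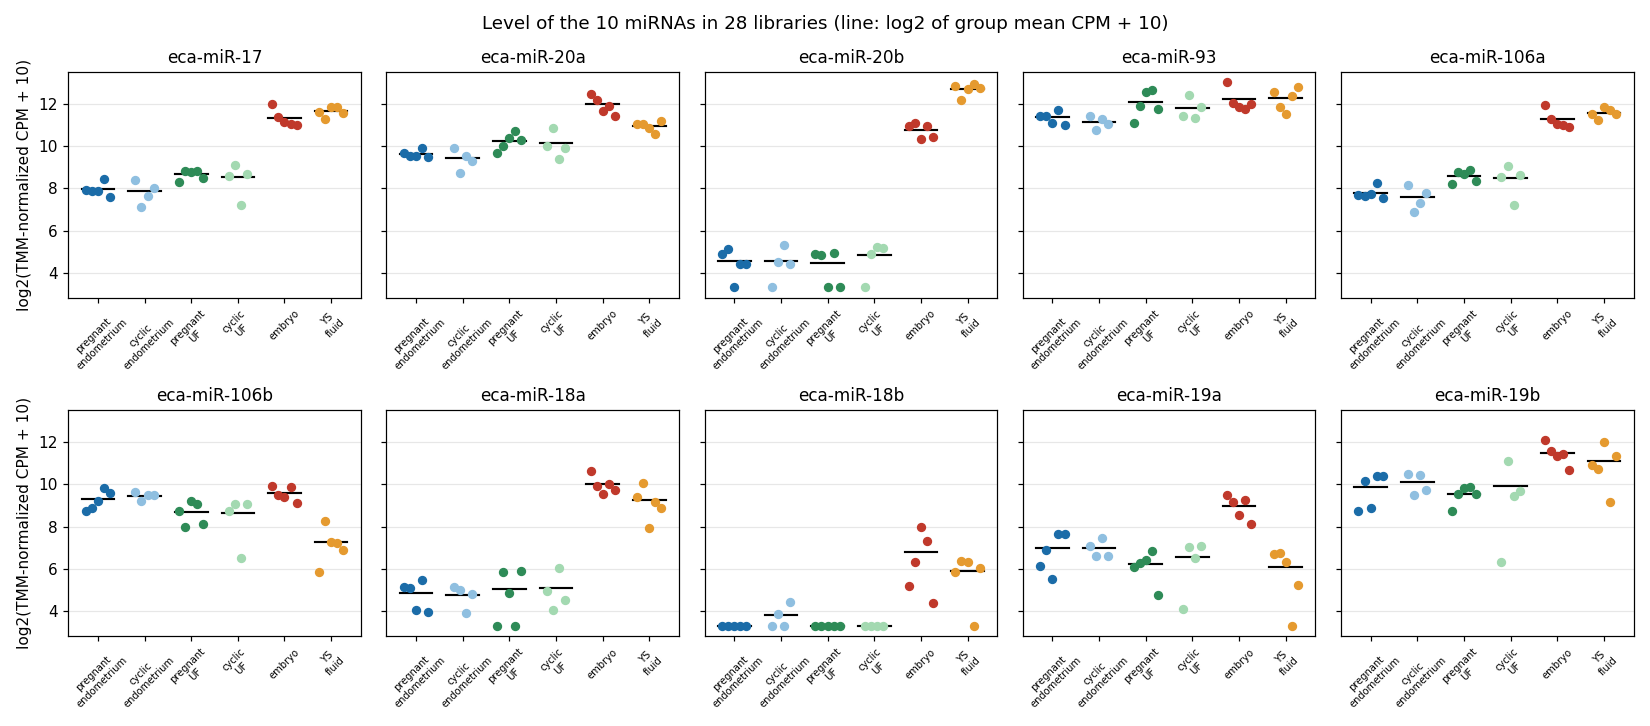
Level of each of the 10 miRNAs, as log2 of TMM-normalized CPM plus 10 (y axis), in the 6 groups (x axis), with 1 point per library and a black line at the log2 of the group mean plus 10. miR-20b and miR-18a sit near the bottom in all uterine groups and high in embryo and YS fluid, miR-93 overlaps between most groups, and miR-106b is lowest in YS fluid on this scale, an order that does not hold as plain CPM.

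Of the miR-17 family, miR-20b showed the widest range. Its level in the 5 embryos was 1976, 2190, 1260, 1945 and 1355 CPM, and in the 5 YS fluids 7332, 4582, 6676, 7909 and 6872 CPM. In pregnant endometrium it was 19.9, 24.6, 0, 11.3 and 11.2 CPM, or 13 reads in all. The 3 groups did not overlap, with YS fluid above embryo and embryo above endometrium. The other uterine groups were at 13.8 ± 12.5 CPM (SD, n = 4, 11 reads) in cyclic endometrium, 11.9 ± 10.9 (n = 5, 5 reads) in pregnant UF and 18.6 ± 12.8 (n = 4, 8 reads) in cyclic UF, and these 4 groups overlapped. In UF, then, a difference in miR-20b between pregnant and cyclic mares was not detectable at this depth.

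miR-17 and miR-20a, which stand in the same cluster, had reads in every library, with a lowest count of 5 for miR-17 and 11 for miR-20a. miR-17 was at 4006, 2619, 2209, 2073 and 2050 CPM in embryo and at 3102, 2464, 3677, 3608 and 3024 CPM in YS fluid, against 234, 226, 225, 340 and 185 CPM in pregnant endometrium. On this TMM scale embryo and YS fluid overlapped, and both stood clear of every uterine library, since the highest of those was a cyclic UF at 541 CPM. As plain CPM, every YS fluid (5974 or more) lay above every embryo (5247.5 or less). miR-20a was at 5630, 4607, 3175, 3825 and 2767 CPM in embryo, at 2115, 2094, 1838, 1526 and 2281 CPM in YS fluid, and at 812, 738, 736, 951 and 700 CPM in pregnant endometrium. Here, on the TMM scale, embryo stood above YS fluid without overlap, and YS fluid overlapped with pregnant UF, which was at 1199 ± 321 CPM (SD, n = 5). As plain CPM, YS fluid (2528 to 7883) overlapped with embryo (5082.5 to 8645) and lay above pregnant UF (at most 952). miR-106a followed miR-17, with 2482 ± 847 CPM in embryo, 3045 ± 459 in YS fluid and 212 ± 47.4 in pregnant endometrium (n = 5 each).

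In the miR-25 cluster, miR-93 was the most abundant of the 10 in all uterine groups, with 2610 ± 527 CPM (SD, n = 5) in pregnant endometrium, 2238 ± 441 (n = 4) in cyclic endometrium, 4369 ± 1805 (n = 5) in pregnant UF and 3586 ± 1344 (n = 4) in cyclic UF. In embryo it was at 8282, 4166, 3623, 3419 and 4044 CPM and in YS fluid at 5969, 3621, 2927, 5273 and 6954 CPM. On the TMM scale each neighbouring pair in its order of group means overlapped. As plain CPM, the lowest embryo library (5542) lay above the highest uterine one (4180, a pregnant UF). miR-106b was at 947, 702, 656, 940 and 538 CPM in embryo, at 47.0, 296, 142.8, 139 and 110 CPM in YS fluid and at 414, 463, 580, 894 and 751 CPM in pregnant endometrium. On the TMM scale YS fluid thus stood below both without overlap, but it held only 26 reads of miR-106b in its 5 libraries. As plain CPM it overlapped with pregnant endometrium (132 to 830 against 241 to 564). In UF miR-106b was at 404 ± 150 CPM (n = 5) in pregnant and 384 ± 208 (n = 4) in cyclic mares, and in cyclic endometrium at 696 ± 86.5 (n = 4).

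In the miR-18 family the uterine libraries lay near or under the floor. miR-18a was at 1570, 952, 725, 1026 and 828.88 CPM in embryo and at 658, 1059, 232, 555 and 467 CPM in YS fluid. In pregnant endometrium it was at 24.9, 24.6, 6.63, 34.0 and 5.60 CPM, or 19 reads, and the other uterine groups had means of 17.5 ± 8.89 (SD, n = 4, 10 reads) in cyclic endometrium, 23.6 ± 24.8 (n = 5, 10 reads) in pregnant UF and 24.0 ± 21.4 (n = 4, 8 reads) in cyclic UF. Embryo and YS fluid overlapped with each other and with no uterine group. miR-18b, its relative in the miR-106a cluster, was rare throughout, with 1, 6, 14, 7 and 1 reads in the embryos (27.1, 71.4, 242, 150 and 11.2 CPM) and 10 reads in YS fluid. It had 0 reads in all libraries of pregnant endometrium, pregnant UF and cyclic UF, and 3 reads in cyclic endometrium. In pregnant endometrium a count of 0 allows up to 9.95 to 16.98 CPM per library, so the embryo mean of 100 ± 95.6 CPM (n = 5) was at least 6.82-fold higher, while the lowest embryo library lay within that range.

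The miR-19 family split between its members in YS fluid. miR-19b was at 4358, 3012, 2536, 2757 and 1635 CPM in embryo, at 1927, 1700, 4016, 555 and 2611 CPM in YS fluid and at 419, 1117, 467, 1324 and 1322 CPM in pregnant endometrium. Embryo stood clear of endometrium, and YS fluid, with 4 reads in its shallowest library, overlapped with both on the TMM scale. As plain CPM that library (919) lay above the highest pregnant endometrium (836). miR-19a was at 704, 559, 362, 598 and 269 CPM in embryo, at 94.0, 98.5, 71.4, 0 and 27.5 CPM in YS fluid and at 59.8, 108, 36.5, 192 and 190 CPM in pregnant endometrium. For miR-19a, then, embryo stood alone above all other groups. On the TMM scale YS fluid, with 11 reads in all, lay within the range of the uterine groups or below it. As plain CPM it was at 264, 277, 306, 0 and 68.8, against at most 121 in the uterine libraries. The means in the remaining groups were 117 ± 37.1 CPM (SD, n = 4) in cyclic endometrium, 64.6 ± 31.7 (n = 5) in pregnant UF and 84.6 ± 55.4 (n = 4) in cyclic UF for miR-19a, and 1095 ± 363.02, 737 ± 197 and 943 ± 905 CPM for miR-19b in the same order.

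The question of what the conceptus carries relative to the uterus was then put to edgeR's quasi-likelihood test, run for each comparison over all miRNAs with at least 1 CPM in as many libraries as the smaller group. A miRNA was called at a Benjamini-Hochberg FDR of at most 0.05 with a fold change of at least 2. Between embryo and pregnant endometrium 10 members were tested and 9 were called, all higher in embryo, where 28.7% of the 359 miRNAs tested were called higher, and 8 were called with miR-106a left out. Of these 10, miR-20b and miR-18b entered the test through the embryo libraries alone, the group where they are high. Of the 8 that entered through endometrium as well, 7 were called. The median log2 fold change of the 10 was 3.07, against -1.02 over all miRNAs tested. The same 9 did not overlap between the groups in TMM-normalized level, as did 15.3% of all miRNAs tested in that direction. These 9 include miR-20b and miR-18b, which entered through embryo alone, and miR-106a, which ran with miR-17. The gap of miR-18b was 1 read in the lowest embryo library (11.2 CPM) against 0 reads in pregnant endometrium. That level lay within the endometrial floor of 9.95 to 16.98 CPM, so miR-18b cannot be taken as separated.

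The largest fitted differences with reads in both groups were those of miR-20b and miR-18a. miR-20b was higher in embryo by 7.14 ± 0.77 (log2 fold change ± SE, n = 5 and 5, FDR 7.92e-06), and miR-18a by 5.86 ± 0.59 (FDR 4.7e-06). These 2 values rest on 13 and 19 reads in pregnant endometrium, near or under its floor, so their size is loosely set. The fitted value for miR-18b, 6.92 ± 1.15 (FDR 0.00103), rests on a group at 0 and is no measure of size, so miR-18b is not ranked. miR-17 (3.61 ± 0.32, FDR 2.17e-06), miR-106a (3.73 ± 0.33, FDR 1.78e-06) and miR-20a (2.54 ± 0.28, FDR 9.2e-06) followed. Both miR-19 members rose less, miR-19a by 2.29 ± 0.52 (FDR 0.00232) and miR-19b by 1.80 ± 0.41 (FDR 0.00241). From the miR-25 cluster, miR-93 was just past the fold threshold at 1.02 ± 0.28 (FDR 0.00668) and miR-106b was not called at 0.49 ± 0.33 (FDR 0.186), though it was with library totals (1.77). The call of miR-93 was lost without embryo replicate 1, at 0.67, without any 1 of the other embryos, and without pregnant endometrium replicate 3 or 5 (0.84 to 0.97). With RLE size factors (1.54, FDR 0.00167) and library totals (2.33, FDR 4.54e-05) miR-93 was further past the threshold. Relative to TMM, RLE size factors moved the median of all miRNAs in this comparison by 0.47 and library totals by 1.33, and all 10 members stayed higher in embryo under both.

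**Figure D2:**
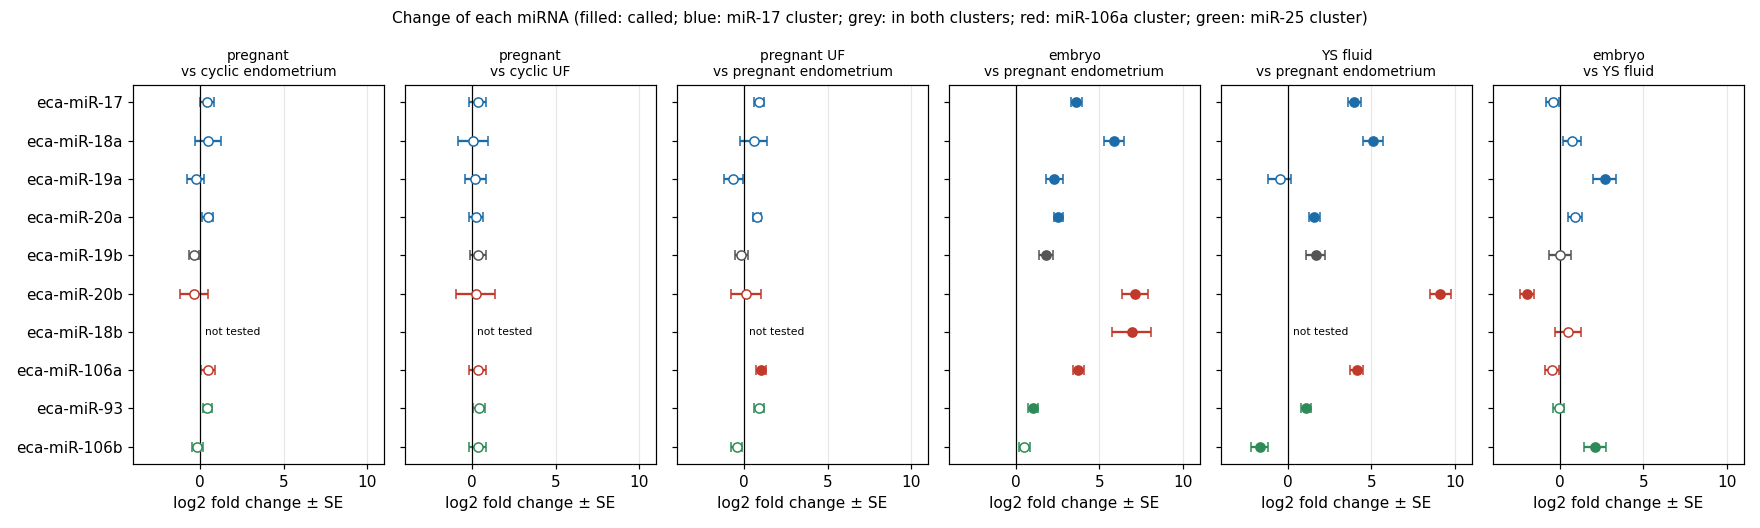
Log2 fold change of each miRNA (x axis, TMM scale, points, with bars of 1 SE) in 6 comparisons, filled where called and open where not, and coloured by gene cluster. Log2 fold changes between embryo and pregnant endometrium run from 0.49 for miR-106b to 7.14 for miR-20b, those between pregnant and cyclic samples lie between -0.37 and 0.48, and miR-106b, below 0 in YS fluid against pregnant endometrium, turned positive with library totals.

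Against the same pregnant endometrium, YS fluid gave 8 calls among 9 members tested, 7 higher and 1 lower, where 17.9% of 341 miRNAs were called higher and 35.2% lower. miR-18b was not tested there, miR-20b entered through YS fluid alone, and miR-19a through pregnant endometrium alone. miR-20b was higher by 9.12 ± 0.64 (log2 fold change ± SE, FDR 4.53e-08), miR-18a by 5.09 ± 0.58 (FDR 2.35e-06), miR-106a by 4.11 ± 0.39 (FDR 5.55e-07), miR-17 by 3.97 ± 0.38 (FDR 5.84e-07) and miR-20a by 1.57 ± 0.33 (FDR 0.000765). The values of miR-20b and miR-18a rest again on 13 and 19 reads in pregnant endometrium. miR-19b (1.66 ± 0.56, FDR 0.0199) and miR-93 (1.06 ± 0.30, FDR 0.00724) were called with less margin. Without YS fluid replicate 3, miR-19b was at 0.75 and not called, and its call was also lost without YS fluid replicate 5 or any 1 of pregnant endometrium replicates 1 to 4. Without YS fluid replicate 5, miR-93 was at 0.58 and not called, and its call was also lost without YS fluid replicate 1, 2 or 3 or pregnant endometrium replicate 1, 2, 3 or 5. miR-19b and miR-93 were both called with RLE size factors (2.47 and 1.87) and with library totals (3.66 and 3.09). miR-19a, at -0.51 ± 0.68 (FDR 0.571), was not called and turned to 0.34 with RLE size factors and 1.49 with library totals. miR-106b was lower by -1.71 ± 0.49 (FDR 0.00845), but this value turned to 0.29 with library totals and the call was lost with RLE size factors, at -0.87. The call of miR-106b was also lost with DESeq2 (-0.85, FDR 0.115), edgeR's filterByExpr (-1.03, FDR 0.0616) and known miRNAs only (-0.97, FDR 0.103). Library totals moved the median of all miRNAs by 2.00 in this comparison and RLE by 0.82, and under both the split of calls was 7 higher and 0 lower.

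Compared with pregnant UF, which shares its extraction kit with YS fluid, the picture was similar for the strongest members. YS fluid against pregnant UF gave 6 calls among 9 members tested, all higher, where 23.5% of 277 miRNAs were called higher. miR-20b (9.01 ± 0.64, FDR 4.14e-08) and miR-18a (4.69 ± 0.82, FDR 0.000177) entered through YS fluid alone. Their pregnant UF means (11.9 and 23.6 CPM, on 5 and 10 reads) lay under its floor of 28.6 to 62.5 CPM, so the size of these 2 values is loosely set. miR-106a (3.24 ± 0.43), miR-17 (3.22 ± 0.42), miR-19b (2.03 ± 0.58) and miR-20a (1.03 ± 0.40) had FDRs of 9.31e-06, 8.57e-06, 0.00744 and 0.0362, and the last call, that of miR-20a, was lost with the mare as a block (0.93, FDR 0.0823) and without any 1 of 7 libraries, the pregnant UF replicates and YS fluid replicates 2 and 5 (FDR 0.0533 to 0.0714). miR-93 (0.33 ± 0.36) was not called, but was with RLE size factors (1.02, FDR 0.022) and library totals (2.10, FDR 0.000113). miR-19a (0.38 ± 0.67), which entered through pregnant UF alone, was called with library totals (2.06, FDR 0.0128). miR-106b was not called, at -0.99 ± 0.59, and turned to 0.65 with library totals.

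Embryo against pregnant UF gave 8 calls among 10 members tested, all higher, where 29.7% of 310 miRNAs were called higher, and 3 of the called members (miR-20b, miR-18a and miR-18b) entered through embryo alone. The log2 fold changes were 6.67 ± 0.85 for miR-20b (FDR 3.59e-05), 4.93 ± 0.89 for miR-18a (FDR 0.000456) and 2.58 ± 0.58 for miR-19a (FDR 0.00212). Those of miR-20b and miR-18a rest on 5 and 10 reads in pregnant UF, with means under its floor, and their size is loosely set. miR-17 (2.37 ± 0.40, FDR 0.000308) and miR-106a (2.36 ± 0.40, FDR 0.000344) were nearly equal, and miR-19b stood at 1.65 ± 0.38 (FDR 0.00249) and miR-20a at 1.48 ± 0.33 (FDR 0.00212). miR-18b was called at an FDR of 0.00506, but its fitted value rests on a group at 0 reads and is no measure of size. Its embryo mean, 100 ± 95.6 CPM (SD, n = 5), was 2.51-fold the mean floor of pregnant UF, which ran from 28.6 to 62.5 CPM. That ratio is a lower bound for the group means alone. The embryo libraries with 1 read each, at 27.1 and 11.2 CPM, lay under that floor. miR-93 was at -0.21 ± 0.36 and not called, but turned to 0.58 with RLE size factors and, called, to 1.33 with library totals. miR-106b, at 0.62 ± 0.42, was not called, but was with RLE size factors (1.29, FDR 0.0208) and library totals (2.14, FDR 0.000482).

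Within the conceptus, tissue and fluid differed in which members they held. Of 10 members tested between embryo and YS fluid 3 were called, where 35.1% of 259 miRNAs were called. miR-20b was lower in embryo by -1.98 ± 0.40 (log2 fold change ± SE, FDR 0.00421), and lower in 5 of 5 pairs of the same number. miR-19a was higher in embryo by 2.67 ± 0.71 (FDR 0.0163) and miR-106b by 2.08 ± 0.64 (FDR 0.03), each in 5 of 5 pairs, on 11 and 26 reads in YS fluid. miR-19a, like miR-18b, entered the test through the embryo libraries alone, and of the 8 members that entered through YS fluid as well 2 were called. The call of miR-106b was lost without any 1 of 6 libraries, embryo replicates 2 and 4 and YS fluid replicates 1, 3, 4 and 5 (FDR 0.0504 to 0.0672), without a filter (1.94, FDR 0.0559) and with thinned libraries (2.02, FDR 0.0846). On the TMM scale miR-20a was higher in embryo in 5 of 5 pairs as well but was not called (0.88 ± 0.42, FDR 0.113). Its value with library totals was 0.24, and as plain CPM replicate 3 went the other way (5082.5 in embryo, 7883 in YS fluid). miR-17 was higher in 2 of 5 pairs (-0.45 ± 0.41, FDR 0.405) on the TMM scale, but as plain CPM every YS fluid lay above every embryo. The remaining members were not called either, with miR-18a at 0.71 ± 0.53, miR-18b at 0.45 ± 0.78 (-0.11 with library totals), miR-93 at -0.09 ± 0.33 and miR-19b at 0.00 ± 0.64 (-0.58 with library totals). With library totals, which moved the median of all miRNAs by -0.61, the split of 2 higher and 1 lower became 1 higher and 3 lower, the call of miR-106b being lost (1.53, FDR 0.0532) and miR-17 (-1.07, FDR 0.0422) and miR-106a being called lower. YS fluid libraries were the shallowest and were extracted with another kit than the embryos, and neither was separated from the tissue in this comparison.

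**Figure D3:**
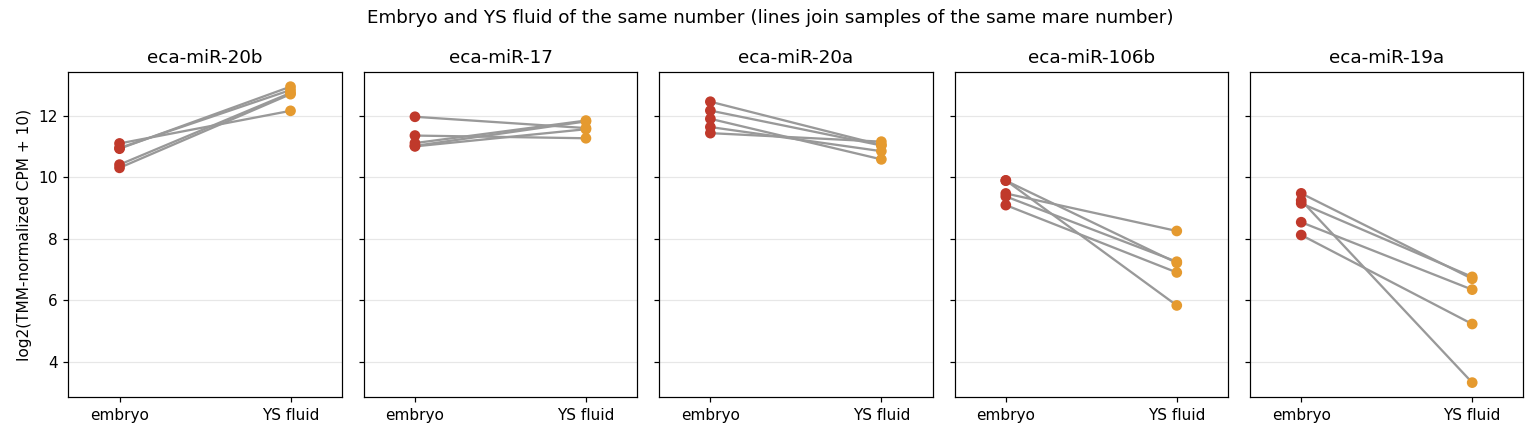
Level of 5 miRNAs, as log2 of TMM-normalized CPM plus 10 (y axis), in embryo and YS fluid (x axis), with 1 point per library and grey lines joining samples of the same mare number. On this scale all 5 lines rise for miR-20b and all 5 fall for miR-20a, miR-106b and miR-19a, while those of miR-17 run both ways. As plain CPM the line of replicate 3 would rise for miR-20a, and all 5 would rise for miR-17.

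Shares within a library are free of any scaling between libraries, and the clearest difference was that of miR-20b. Of the reads of miR-20a and miR-20b together, miR-20b took 30.6% ± 3.30 (SD, n = 5, 25.98 to 33.7%) in embryo, 76.7% ± 5.53 (n = 5, 68.6 to 83.8%) in YS fluid and 1.67% ± 1.22 (n = 5, 0 to 3.23%) in pregnant endometrium. The share was 2.27% ± 1.75 (n = 4) in cyclic endometrium, 1.10% ± 1.08 (n = 5) in pregnant UF and 1.96% ± 1.77 (n = 4) in cyclic UF. Embryo, YS fluid and the uterine groups thus held separate ranges. The difference of 29.0 percentage points between embryo and pregnant endometrium gave p = 0.00794 in an exact two-sided permutation test over samples, the smallest that 5 against 5 samples allow, and was 1 of 3 pairs of relatives compared. With samples paired by mare the exact sign-flip test gave p = 0.0625, the smallest that 5 pairs allow.

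The other pairs said less. miR-18b took 9.55% ± 9.81 (n = 5) of the reads of the miR-18 pair in embryo and 0% of 19 reads in pregnant endometrium, and with 1 to 6 reads per endometrial library (exact permutation p = 0.00794) the 0 cannot be told from a low share. In cyclic endometrium, by contrast, 3 of 13 reads of the pair were miR-18b, which gave a mean share of 14.2% ± 18.9 (n = 4). miR-106a took 48.8% ± 0.774 of the reads of miR-17 and miR-106a in embryo and 46.8% ± 1.28 in pregnant endometrium (n = 5 each, exact permutation p = 0.0317, but p = 0.125 in the exact sign-flip test paired by mare and p = 0.0635 without any 1 of 6 libraries), a near-even split in every group that carries the doubt about shared reads given above. Of the miR-19 reads, miR-19a took 14.8% ± 2.03 in embryo (12.5 to 17.8%), 10.8% ± 2.56 in pregnant endometrium (7.24 to 12.7%) and 2.58% ± 2.37 in YS fluid (0 to 5.48%). Of the reads of miR-93 and miR-106b, which stand side by side in the miR-25 cluster, miR-106b took 14.7% ± 4.36 in embryo (10.3 to 21.6%), 19.3% ± 5.59 in pregnant endometrium (13.2 to 26.8%) and 3.42% ± 2.73 in YS fluid (0.781 to 7.55%). In both pairs the range of YS fluid lay below those of embryo and pregnant endometrium, but it overlapped with those of UF. In pregnant UF miR-19a took 2.22 to 12.2% and miR-106b 5.97 to 15.9%, and in cyclic UF 5.22 to 13.7% and 3.16 to 13.2%. None of this was tested.

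Within the miR-17 family, the leading member differed between sites. miR-93 made up 60.9% ± 4.28 (SD, n = 5) of the family's reads in pregnant endometrium and 67.1% ± 5.55 (n = 5) in pregnant UF, with miR-106a left out. In embryo miR-93 stood at 33.5% ± 5.12 and miR-20a at 29.1% ± 2.77, followed by miR-17 at 18.8% ± 1.20 and miR-20b at 13.0% ± 2.68 (n = 5 each). In YS fluid miR-20b led with 39.4% ± 3.97, ahead of miR-93 (28.8% ± 6.30), miR-17 (18.99% ± 3.25), miR-20a (11.9% ± 2.76) and miR-106b (0.955% ± 0.774). miR-106b stood at 14.6% ± 4.24 in pregnant endometrium and at 6.65% ± 2.64 in pregnant UF. No test was made of these shares.

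**Figure D4:**
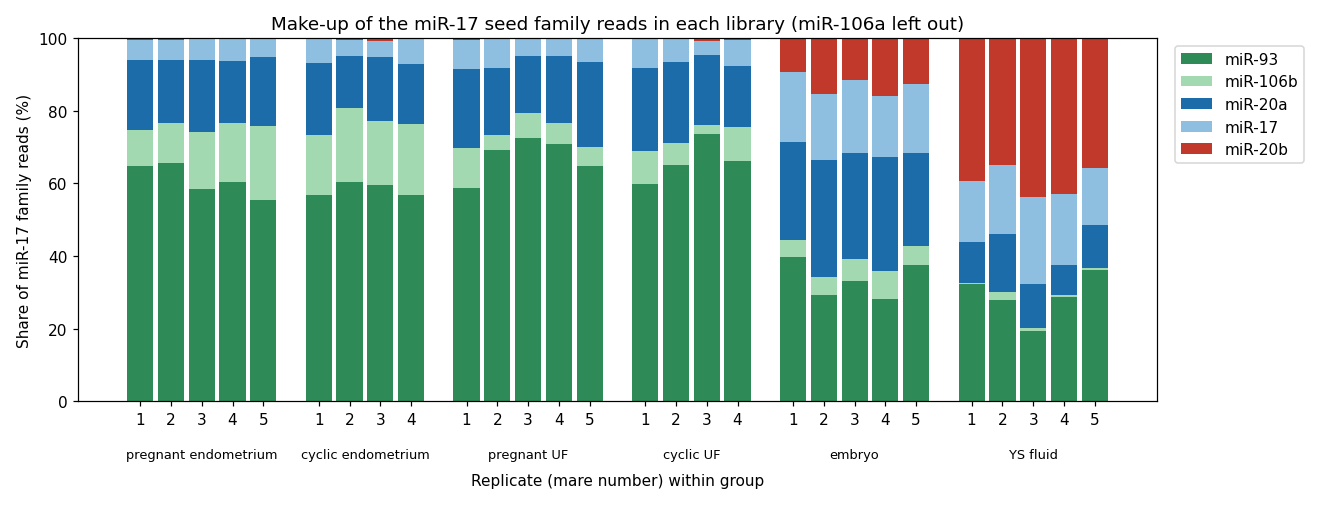
Share of each miRNA in the reads of the miR-17 family (y axis, percent, miR-106a left out), with 1 stacked bar per library, numbered by replicate within the 6 groups (x axis). miR-93 (dark green) fills 55.5 to 72.4% of the bars of pregnant endometrium and pregnant UF, and miR-20b (red) fills 9.48 to 15.9% of the embryo bars and 35.1 to 43.7% of the YS fluid bars.

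Whether pregnancy itself changed these miRNAs in the mare was tested with the mare as block, so that the 4 mares with both cycles set the contrast. In endometrium 0 of 9 members tested were called with edgeR, and DESeq2 also called 0, where 3.37% of 386 miRNAs were called with edgeR. None of the 9 had an unadjusted p under 0.05, against 16.8% of all miRNAs. Their log2 fold changes lay between -0.37 and 0.48, with SEs of 0.27 to 0.83, so that for miR-18a and miR-20b even a 2-fold change lay within 2 SE of 0. The member with the smallest p in each family was miR-93 (0.42 ± 0.27, FDR 0.516, higher in 3 of 4 mares), miR-18a (0.48 ± 0.79, FDR 0.911, on 19 and 10 reads) and miR-19b (-0.37 ± 0.32, FDR 0.778, higher in 2 of 4 mares).

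In UF, too, 0 of 9 members tested were called with edgeR, and DESeq2 also called 0, where 4.92% of 305 miRNAs were called, and no member had an unadjusted p under 0.05, against 14.1% of all. The log2 fold changes were 0.02 to 0.41 with SEs of 0.37 to 1.19. miR-93 had the smallest p of its family (0.41 ± 0.37, FDR 0.80, higher in 2 of 4 mares). miR-19b stood at 0.37 ± 0.49 (FDR 0.905), which turned to -0.14 without the mare block, and its cyclic UF libraries ranged from 69.6 to 2212 CPM. miR-18a (0.02 ± 0.90, FDR 0.996) had no stable direction. For each of the 9, the pregnancy effect in UF was also set against that in endometrium in 1 fit. That interaction was called for 0 members with edgeR, at a lowest FDR of 0.987, where 1.69% of 415 miRNAs were called, and for 0 at an unadjusted p under 0.05.

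Between UF and endometrium of the same cycle kind few members were called, although in pregnant mares 4 passed the FDR. The median log2 fold change of the members in pregnant mares was 0.56, against -0.12 over all miRNAs tested. In pregnant mares 1 of 9 members tested was called, where 33.7% of 359 miRNAs were called. This was miR-106a, higher in UF by 1.02 ± 0.32 (log2 fold change ± SE, FDR 0.0188), at the edge of the fold threshold. miR-17 (0.90 ± 0.31, FDR 0.0336), miR-93 (0.90 ± 0.29, FDR 0.0219) and miR-20a (0.76 ± 0.25, FDR 0.0241) passed the FDR but not the fold, and miR-17 and miR-106a were higher in UF in 5 of 5 mares. The call of miR-106a was lost with RLE size factors (0.98) and when any of 6 libraries was left out (0.87 to 0.99). In cyclic mares, in other libraries, 0 of 9 members were called with edgeR, where 30.8% of 328 miRNAs were called, while DESeq2 called 1. None of the 9 had an unadjusted p under 0.05, against 38.1% of all miRNAs. The values side by side were 1.03 ± 0.53 for miR-106a, 0.80 ± 0.52 for miR-17, 0.69 ± 0.34 for miR-93 and 0.77 ± 0.43 for miR-20a, and without cyclic UF replicate 3, in which miR-17 had 5 reads, 4 members were called. miR-106b and miR-19a lay below 0 in both cycle kinds, at -0.45 ± 0.33 and -0.64 ± 0.56 in pregnant and at -0.78 ± 0.53 and -0.50 ± 0.67 in cyclic mares, and were not called in either.

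The 4 miRNAs encoded beside the members, or related to them, did not all move with them. miR-363, from the miR-106a cluster, had 9.25 ± 5.37 CPM (SD, n = 5, 9 reads) in pregnant endometrium, 389 ± 312 in embryo and 352 ± 92.7 in YS fluid, and was called higher in both (log2 fold change 5.51 ± 0.79 SE, FDR 8.32e-05, and 5.43 ± 0.60, FDR 1.89e-06). miR-92a, which like miR-19b has a gene in both large clusters, was at 8848 ± 2887 CPM in pregnant endometrium, 11841 ± 4422 in embryo and 89605 ± 41855 in YS fluid. It was called higher in YS fluid (3.46 ± 0.38, FDR 1.82e-06) but not in embryo (0.62 ± 0.28, FDR 0.0658), where it was called with RLE size factors (1.09) and library totals (1.95). miR-25, in the cluster of miR-93 and miR-106b, stood at 9470 ± 580 CPM in pregnant endometrium and 4491 ± 1486 in embryo, and at -0.89 ± 0.24 (FDR 0.00632) it passed the FDR but not the fold, and turned to 0.46 with library totals. miR-92b, a relative of miR-92a encoded elsewhere, went the other way, at 2080 ± 914 CPM in pregnant endometrium and 106.03 ± 57.3 in embryo (-4.06 ± 0.57, FDR 7.06e-05), and was higher in pregnant UF than in pregnant endometrium (4.07 ± 0.48, FDR 4.14e-05). On the TMM scale, then, miR-363 was called higher and miR-92b lower in embryo than in pregnant endometrium, and miR-363 and miR-92a higher in YS fluid. In YS fluid against pregnant endometrium, miR-25 (-0.69 ± 0.28, FDR 0.0505) and miR-92b (-1.10 ± 0.58, FDR 0.125) were not called. With library totals miR-25 turned to 1.33 there and was called higher (FDR 0.000658), and miR-92b turned to 0.89, not called.

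In each family the member with the highest mean level over the 28 libraries was taken, which gave miR-93, miR-18a and miR-19b. The miRNAs closest to it in pattern were sought among the known miRNAs outside the families with a mean of at least 100 CPM. Closeness was Pearson's r of log2 (TMM-normalized CPM + 10) over the 28 libraries. The values describe these 3 members and not their families. These libraries share mares, groups and depth, so the values only describe. miR-18a was closest to the embryonic miRNAs miR-302b (r = 0.950), miR-372 (0.947) and miR-371-5p (0.941). miR-93 was closest to miR-454 (0.722), miR-1307 (0.678) and miR-378 (0.577), and miR-19b to miR-7 (0.700), miR-302a (0.631) and miR-671-5p (0.631).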

How the data were processed

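The authors trimmed adapters with cutadapt 1.11 (named in the submitters' processing notes), removed short and low-quality reads, and counted reads on miRBase horse miRNAs and on miRNAs predicted on EquCab2.0 with miRPro. The deposited values are raw counts of reads on each miRNA, not normalized. The tables of known and predicted miRNAs were joined and tested together, the table of predicted precursors was not used, and 0 columns of values were left without a sample. Reads on near-identical miRNAs may be shared by the counting, which touches miR-17 and miR-106a.

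For every comparison, edgeR 4.0.16 (R 4.3.3) was run on the libraries compared and no others. The filter was 1 CPM in at least n libraries, n being the size of the smaller group. Scaling was by TMM, and quasi-likelihood p-values were adjusted by Benjamini-Hochberg over all miRNAs tested. The thresholds for a call, an FDR up to 0.05 together with a 2-fold change or more, are those of the study's methods. The SE is the log2 fold change divided by the root of F. Pregnant and cyclic samples were fitted with the mare as block. The pairing comes from the study's methods. Samples of the same mare deviated together with a mean correlation of 0.161 in endometrium and 0.195 in UF, against -0.0409 and -0.0498 for different mares. These are means of 4 pairs each, with lowest values of -0.0976 and 0.0105. Between compartments the same-number means ran from -0.122 (embryo and pregnant endometrium, 5 pairs) to 0.0954 (embryo and pregnant UF, 5 pairs). For embryo and YS fluid the mean was -0.0205. Mare 5 enters the filter and the scaling of the pregnant against cyclic fits but not the contrast. Nothing in the labels separates biological from technical spread further.

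Test values are given for all members called and, in pregnant against cyclic samples, for the member of smallest p in each family. Levels are given for every member with at least 10 reads. The members, cluster partners and marker lists were chosen with earlier results of these data known. Alternatives were DESeq2 1.42.0, edgeR's likelihood ratio test, RLE size factors, no filter, edgeR's filterByExpr, known miRNAs only, libraries thinned to equal depth, the mare block added or removed, all 28 libraries in 1 fit, and each library left out. Library totals as scale and leaving out miR-106a were added after seeing the data. The fitting code was tested on simulated counts with known changes. Sequences of the miRNAs were not used here.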

Additional observations from a re-analysis of the deposited data

Results flagged for a closer look

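In 53 combinations of a miRNA and a group of 4 or 5 libraries, the extreme library was set against the others by Dixon's ratio at the 95% level, at which chance alone picks out about 1 in 20 (2.65 of 53), and 3 were picked out. Embryo replicate 1 had the highest miR-93, at 8282 CPM, with the other embryos between 3419 and 4166. The same embryo had the highest miR-106a, at 3952 CPM, with the others between 1882 and 2440. Pregnant endometrium replicate 4 had the highest miR-106a of its group, at 294 CPM, with the others between 174 and 206.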

How the results depend on the processing

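The counts of members called between embryo or YS fluid and the uterine groups stayed within 1.5 times the main count under all 22 alternatives of each comparison (8 to 10 for embryo against pregnant endometrium, 6 to 9 for YS fluid against it, 7 to 10 and 5 to 8 against pregnant UF, and 2 to 4 for embryo against YS fluid), and 0 members were called under any alternative between pregnant and cyclic samples or in the interaction. The single call between pregnant UF and pregnant endometrium became 0 with DESeq2, RLE size factors, no filter or miR-106a left out, 3 with filterByExpr or known miRNAs only, 4 with thinned libraries or the FDR alone, and 0 to 2 with 1 library left out. The 0 calls between cyclic UF and cyclic endometrium became 1 with DESeq2 or filterByExpr, 2 with all 28 libraries in 1 fit, and 0 to 4 with 1 library left out.

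The difference in the share of miR-106a between embryo and pregnant endometrium, 2.05 percentage points, gave p = 0.125 in the exact sign-flip test that pairs samples by mare, and that of miR-18b (9.55) and of miR-20b (29.0) p = 0.0625, the smallest that 5 pairs allow. With 1 library left out the miR-106a difference was 1.70 to 2.47. The replicate block ended the calls of miR-93 in embryo against pregnant endometrium (0.99, FDR 0.0272, under the fold threshold) and of miR-20a in YS fluid against pregnant UF (0.93), and changed no other call among the members tested there.

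Directions turned for members that were not called and for 1 that was. miR-18a between pregnant and cyclic endometrium was at -0.25 with thinned libraries. In UF it was at -1.06 with DESeq2, where its adjusted p was not given, at -0.050 without a filter, -0.079 with known miRNAs only, -0.083 with library totals, -0.095 with thinned libraries, -0.0021 with miR-106a left out, and -2.15 to 0.62 with 1 replicate left out. miR-19b in UF was at -0.14 without the replicate block, -0.36 with all 28 libraries in 1 fit and -0.22 to 0.88 with 1 replicate left out. miR-106b in YS fluid against pregnant endometrium was at 1.09 with thinned libraries and 0.29 with library totals, and the cause was not tested. Depth limits the YS fluid values most, where the shallowest library holds 4352 reads.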
